A study of Mus musculus with 2 samples.

Results

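The Ly6 genes described here encode small surface proteins of mouse leukocytes. The 8 members were taken by symbol as a fixed list, chosen with earlier results of these data known. They were Ly6a, Ly6c1, Ly6c2, Ly6d, Ly6e, Ly6g, Ly6i and Ly6k, out of 33696 genes in the matrices, and each was found once. Their RNA was counted in droplet-based 3′ single-cell libraries from 2 groups of mice in which Bicd2, the gene for a dynein adaptor, carried floxed alleles. The WT group was Alb-WT Bicd2fl/fl, without Cre, and the KO group was Alb-Cre Bicd2fl/fl, in which the albumin promoter drives Cre in hepatocytes, so the gene was not targeted in the leukocytes that were measured. Per the series text, both groups received 2.5 mg of S-100, the soluble fraction of liver homogenate in complete Freund's adjuvant, by weekly intraperitoneal injection over 3 weeks as a model of autoimmune hepatitis (AIH), and living liver leukocytes were sorted and pooled. The sample labels disagree with that text: they name the cells peritoneal and the treatment HFD, and the labels do not settle which is right. Age, sex, strain and the number of pooled animals were not given in the sources used here.

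Proteins of the Ly6/uPAR superfamily share a disulfide-bonded 3-finger fold and are mostly held in the membrane by a glycosylphosphatidylinositol anchor. Several are the antigens by which mouse leukocytes are sorted: Ly6a is Sca-1, a marker of blood stem cells and of activated lymphocytes, Ly6C (from Ly6c1 and Ly6c2) marks classical monocytes and some T cells, and Ly6G marks neutrophils. Ly6a and Ly6c genes are known to respond to interferons, whereas Ly6d is known as an early marker of the B lineage and of some plasmacytoid dendritic cells (pDCs).

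The members differ in how far their RNAs can be told apart, so the sequences that bear on this come first. The coding sequences of Ly6c1 and Ly6c2 (GENCODE M21 transcripts, GRCm38) were each 396 bases long and differed at 9 bases, an identity of 97.7%. The next closest members were Ly6a and Ly6i at 86.4% and Ly6a and Ly6g at 83.2%. Of the 9 differences, 6 lay in the first 120 coding bases, which are shown 5′ to 3′ with the differing bases in capitals.
Ly6c1: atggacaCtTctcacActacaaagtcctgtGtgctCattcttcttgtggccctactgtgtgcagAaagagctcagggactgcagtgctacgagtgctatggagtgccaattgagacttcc
Ly6c2: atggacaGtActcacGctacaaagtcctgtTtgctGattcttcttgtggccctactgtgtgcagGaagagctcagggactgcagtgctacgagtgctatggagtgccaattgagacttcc
In the last 400 transcript bases, where 3′ reads fall, 35 of the 311 windows of 90 bases (11.3%) occurred in both Ly6c1 and Ly6c2, and 0 windows of the other members occurred in any other member. UMIs of Ly6c1 and Ly6c2 are therefore given apart, with the small part that counting could have split between them left uncertain.

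Promoter sequences were found for 3 of the 8 members in the RefSeq table at hand (GRCm38.p6, another build than that of the deposited counts). The 250 bases before the start of each gene are shown 5′ to 3′ on the gene's strand because these 3 genes divided between cell types. Capitals mark matches to TATAAA, the TATA box core, and to AGGAAGT, a core bound by ETS factors. The windows are chr15:75048838-75049087 on the minus strand for Ly6c1, chr15:75111972-75112221 on the minus strand for Ly6c2 and chr15:75155011-75155260 on the plus strand for Ly6g.
Ly6c1: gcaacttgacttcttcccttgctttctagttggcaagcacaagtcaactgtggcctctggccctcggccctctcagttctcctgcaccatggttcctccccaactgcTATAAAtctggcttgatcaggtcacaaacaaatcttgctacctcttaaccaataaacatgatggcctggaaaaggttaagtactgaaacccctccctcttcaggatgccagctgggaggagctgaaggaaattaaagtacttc
Ly6c2: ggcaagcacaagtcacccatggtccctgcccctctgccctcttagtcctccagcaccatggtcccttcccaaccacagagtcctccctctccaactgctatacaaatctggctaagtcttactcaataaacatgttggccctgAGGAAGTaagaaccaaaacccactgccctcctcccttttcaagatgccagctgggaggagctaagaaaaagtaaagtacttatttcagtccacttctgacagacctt
Ly6g: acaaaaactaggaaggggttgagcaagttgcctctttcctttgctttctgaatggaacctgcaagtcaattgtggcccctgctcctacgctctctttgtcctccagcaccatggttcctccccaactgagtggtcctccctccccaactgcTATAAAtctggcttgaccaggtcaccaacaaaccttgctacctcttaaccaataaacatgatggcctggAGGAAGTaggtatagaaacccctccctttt
TATAAA was found in the windows of Ly6c1 and Ly6g and in 13% of all 27025 promoters of this length, and AGGAAGT in those of Ly6c2 and Ly6g and in 7.80%. Both strands were searched and no matches overlapped. The letters TTCNNNGAA (a STAT core, in 7.18% of promoters) and GAAA, any 2 bases and GAAA again (an interferon response core, in 3.04%) were not in these 3 windows. The Ly6c1 window was 72.2% identical to that of Ly6c2 and 75.1% identical to that of Ly6g over the aligned bases. Ly6c2 was more like Ly6a2, a neighbouring gene outside the list that was singled out after its values were seen, at 96.4%.

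Barcodes with at least 200 genes and at most 20% mitochondrial UMIs (unique molecular identifiers, each 1 counted molecule) numbered 20167 in WT and 17675 in KO. Removing marked doublets left 17080 cells in WT, which held 65156031 UMIs with a median of 2793 a cell. In KO it left 15619, which held 42128772 with a median of 2003. The libraries shared 177 barcode sequences, 70 of them among kept cells. Haemoglobin took 11.1% of the UMIs of kept WT cells and 22.9% of KO cells. Bicd2 itself stood at 19.8 and 13.3 CPM (UMIs scaled to 1000000 in all) in WT and KO, which does not check the hepatocyte deletion. The cells were clustered without the Ly6/uPAR genes and named by markers into 9 classes of 50 cells or more per library. They ranged from 5955 WT and 5358 KO T-like cells to 497 and 52 progenitor-like cells. The progenitor-like cluster was led by Ctsg, Mcpt8 and Mpo, and 4 markers of mast cells and basophils were also higher in it. It may thus be mixed, and its makeup in each library was not tested. Levels are CPM of the summed UMIs of a class. With 1 library per genotype there is no replicate check and no test, and every interval, in parentheses, is a 95% interval that covers counting error only.

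Summed over the 8 genes, the family stood lower in the KO library in all 9 classes, but the members differed. At the 2-fold line Ly6a was lower in 9 of the 9 classes compared, Ly6g in 7 of 7, Ly6i in 7 of 7, Ly6c2 in 5 of 9 and Ly6k in 1 of 3, whereas 0 classes passed it downward for Ly6c1 (1 compared), Ly6d (9) and Ly6e (9). Monocyte-macrophage-like cells held 4082 CPM in WT and 1919 in KO, T-like cells 1817 and 1167, and pDC-like cells, the class with the most, 6419 and 3670. B-like cells were the least different, at 2470 and 1987 CPM. Of the 54 pairs of a member and a class with at least 20 UMIs over both libraries, 29 were at least 2-fold lower in KO and 2 at least 2-fold higher, on log2(CPM + 1). The interval of the ratio took in equality in 2 of the 29, Ly6g and Ly6i in progenitor-like cells. A further 18 pairs had fewer UMIs and were not compared. Some lower pairs reached the minimum through WT UMIs alone, such as Ly6g in NK-ILC1-like cells (46 in WT, 0 in KO) and Ly6i in erythroid-like cells (33 and 0). For such pairs the minimum itself favours a lower call. As given below, 6 of the Ly6g and 3 of the Ly6i pairs were not above the WT level of a class that should lack the gene.

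Counts within a class are read against all genes compared there with the same fold and minimum. In monocyte-macrophage-like cells 4 of 6 members were at least 2-fold lower, against 4.55% of 11879 genes. The same count of 4 of 6 held in DC-like cells (2.85% of 11111 genes), neutrophil-like cells (8.37% of 10098) and erythroid-like cells (8.5% of 4281). T-like cells had 3 of 8 (8.07% of 13650 genes), NK-ILC1-like cells 3 of 6 (7.99% of 10864) and progenitor-like cells 3 of 6 (15.7% of 10434), of which only Ly6a had an interval that left out equality. B-like cells had 2 of 5 (2.67% of 9612 genes) and pDC-like cells 2 of 5 (4.8% of 8868). Of the lower members in T-like and NK-ILC1-like cells, only Ly6a was above a class that should lack the gene, as given below. In erythroid-like cells none was, so the counts of these classes are not read as an excess. Lower members not above it were also counted in DC-like, monocyte-macrophage-like and progenitor-like cells (Ly6g) and in neutrophil-like cells (Ly6a). The median member differed by -2.07 on the log2 scale in monocyte-macrophage-like cells, where the median of all genes was -0.06, and by -0.10 in T-like cells, where that of all genes was -0.08. The 2 pairs at least 2-fold higher were both Ly6d, in DC-like cells, where 2.57% of genes were as much higher, and in NK-ILC1-like cells, where 2.24% were. As much higher were 0 members in B-like (1.38% of genes), progenitor-like (8.81%) and pDC-like cells (2.06%). Over all kept cells 4 of 8 members were at least 2-fold lower, against 5.19% of 16426 genes, and 0 higher, against 1.95%. The plot of levels by class shows every pair.

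**Figure D1:**
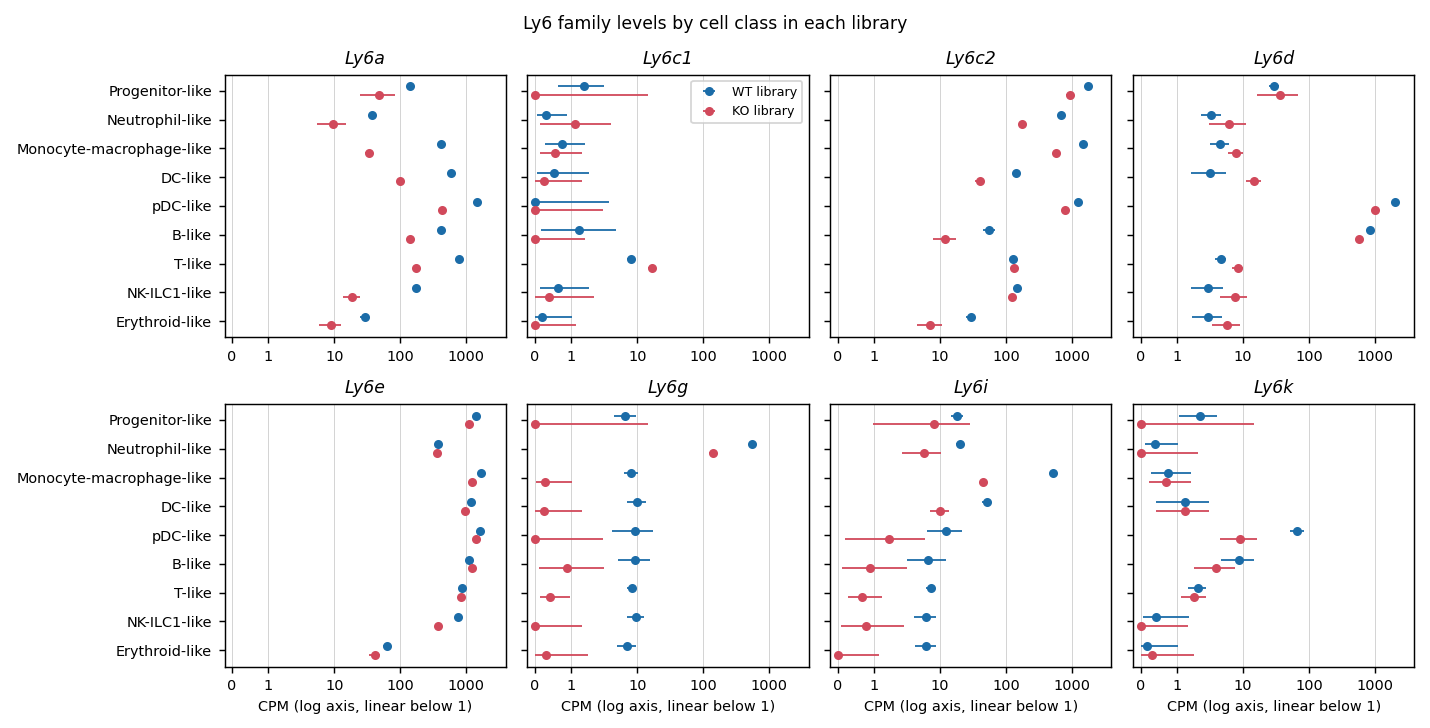
Level of each of the 8 Ly6 genes (CPM, log axis, linear below 1) in 9 cell classes of the WT library (blue) and the KO library (red), 1 library each, with bars for the 95% Poisson counting interval. Ly6a is lower in KO in all 9 classes, while Ly6e is within 2-fold in all 9, from 1.98-fold lower in NK-ILC1-like cells to 0.14 higher on the log2 scale in B-like cells.

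Part of the 29 lower pairs lay near the level of a class that should lack the gene, where free RNA, that is, RNA released from other cells into all droplets, is counted too. WT Ly6g was between 6.62 and 9.84 CPM in all 8 classes other than neutrophil-like cells, and in KO between 0 and 0.87. The summed level of the 13 neutrophil markers, none of them at 0, was also lower in B-like cells, from 4178 CPM in WT to 511 in KO. Free RNA was estimated at 156 UMIs a cell in WT and 100 in KO, from S100a8 and S100a9 in B-like cells. Taking for each gene a class that should lack it (B-like for Ly6c2, Ly6g and Ly6i, erythroid-like for Ly6a), 15 of the 29 pairs had a WT level whose interval lay above that of the lacking class. A further 11 did not, 2 were the lacking class itself, and Ly6k in pDC-like cells had no such class. The 11 were Ly6g outside neutrophil-like cells (6 pairs), Ly6i in T-like, NK-ILC1-like and erythroid-like cells, Ly6a in neutrophil-like cells and Ly6c2 in erythroid-like cells. Every erythroid-like pair counted as lower was thus one of these 11 or the lacking class itself. Of the lower pairs in T-like and NK-ILC1-like cells, only Ly6a was above the lacking class. The 11 pairs are not read as expression in the class. The free RNA estimate itself covered less than the whole of them: for Ly6g it was 23.5% of the WT UMIs in DC-like, 24.8% in progenitor-like, 38.6% in monocyte-macrophage-like, 50.3% in T-like and 59.2% in erythroid-like cells. With free RNA subtracted, 26 of the 27 calls that could be compared again were kept. The subtracted profile was the sum of all barcodes of a library, not of empty droplets. Because it left part of the Ly6g UMIs in classes not above background, the kept calls do not show freedom from free RNA.

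Ly6a, the Sca-1 antigen, was at least 2-fold lower in all 9 classes, by 2.94-fold to 12.4-fold. Its WT level was highest in pDC-like cells at 1461 CPM (1386 to 1538), followed by T-like cells at 777 (765 to 789) and DC-like cells at 592 (568 to 617). The KO order began with the same 2 classes, at 434 (398 to 473) and 173 (166 to 181). Neighbours in the WT order whose intervals overlapped were B-like and monocyte-macrophage-like cells, at 424 and 421 CPM, and neutrophil-like and erythroid-like cells, at 37.1 and 28.8.

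The difference in Ly6a was largest in monocyte-macrophage-like cells, with 421 CPM (407 to 435) in WT and 33.8 (29.7 to 38.4) in KO, 12.4-fold lower (10.9 to 14.2). In NK-ILC1-like cells it was 175 and 18.3 CPM, 9.55-fold lower (7.12 to 13.1). DC-like cells had 592 and 101 CPM, 5.87-fold lower (5.27 to 6.56). The difference was smaller in T-like, pDC-like and B-like cells. T-like cells were 4.48-fold lower (4.28 to 4.69), pDC-like cells 3.36-fold (3.04 to 3.72) and B-like cells, with 424 and 141 CPM, 3.01-fold (2.63 to 3.45). Progenitor-like cells had 141 and 48.0 CPM, 2.94-fold lower (1.67 to 5.71), from 52 KO cells.

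Ly6a also stood lower inside clusters, whose leading genes were taken over the pooled cells of both libraries. All 21 clusters that had 50 cells or more per library and 20 UMIs were at least 2-fold lower, between -3.74 and -1.30 on the log2 scale. Among monocyte-macrophage-like clusters, the one led by Cd300e and Ace, genes of nonclassical monocytes, had 376 CPM in WT and 27.1 in KO, 13.9-fold lower (10.4 to 18.7). The cluster led by the complement genes C1qc and C1qb had 682 and 88.3 CPM, and the classical monocyte cluster led by Vcan and F13a1 had 68.5 and 11.7. Classical monocytes thus carried the least Ly6a of the 3 in each library. Among T-like clusters, the regulatory cluster led by Itgb8 and Foxp3 had the most in WT, 1078 CPM, and 118 in KO. The dividing cluster led by Kif11 had 751 and 305 CPM, 2.47-fold lower (2.19 to 2.78), the smallest ratio of the 21.

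The share of cells with a Ly6a UMI, after every cell was thinned to 1000 UMIs so that depth was equal, was lower too. In T-like cells it was 43.8% (42.4 to 45.2) of 5184 WT cells and 14.8% (13.8 to 15.9) of 4438 KO cells. Thinning left out shallower cells, and unthinned shares were 65.0% and 24.6%. In pDC-like cells the thinned share was 54.8% in WT and 25.8% in KO. Erythroid-like cells, which should lack the gene, showed 3.46% (2.59 to 4.51) in WT and 0.72% (0.29 to 1.48) in KO, at median depths of 3456 and 3009 UMIs against 2725 and 1886.5 in T-like cells. Neutrophil-like cells in KO, at 0.95% (0.38 to 1.95), were not above that background.

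**Figure D2:**
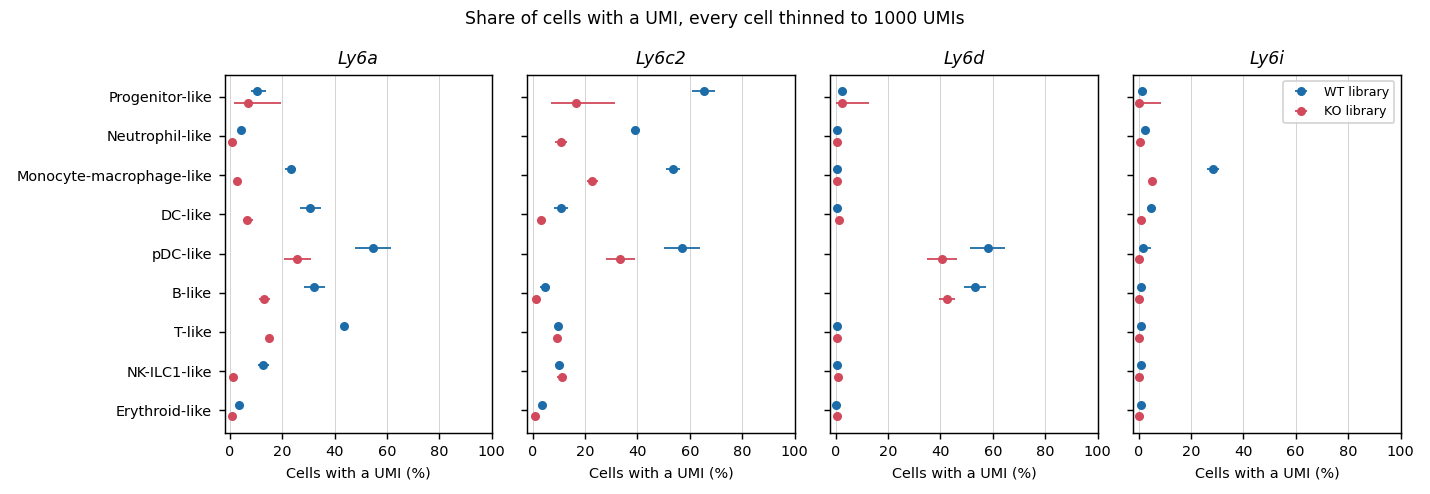
Share of cells (%) with at least 1 UMI of Ly6a, Ly6c2, Ly6d or Ly6i in 9 cell classes after thinning to 1000 UMIs, WT library in blue and KO library in red, with 95% Clopper-Pearson intervals. Ly6a is found in 43.8% of WT and 14.8% of KO T-like cells, and Ly6d only passes 40% in pDC-like and B-like cells.

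T-like cells were also split by co-receptor. Cells with Cd4 and no Cd8 UMI had 933 CPM of Ly6a in WT and 241 in KO, 3.87-fold lower (3.56 to 4.22). Cells with Cd8a or Cd8b1 and no Cd4 had 379 and 54.9 CPM, 6.91-fold lower (5.71 to 8.43). Ly6a was thus higher in the Cd4 than in the Cd8 cells of each library. Among thinned WT T-like cells, Cd8b1 was seen in 3.26% of the cells with Ly6a and in 6.18% of those without, and Mki67, a gene of dividing cells, in 12.7% and 13.8%.

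Ly6c2 encodes the form of Ly6C carried by monocytes and myeloid precursors. In WT it was highest in progenitor-like cells at 1776 CPM (1737 to 1815), monocyte-macrophage-like cells at 1459 (1433 to 1485) and pDC-like cells at 1220.4 (1152 to 1292), whose intervals did not overlap. In KO the same 3 classes led, in the order progenitor-like at 927 (812 to 1054), pDC-like at 779 (731 to 831) and monocyte-macrophage-like at 582 (565 to 601). The first rank rested on 1 of the 52 KO progenitor-like cells, which held 101 of the 232 UMIs (43.5%). Without it the level was 603 CPM, below that of pDC-like cells. After thinning to 1000 UMIs, Ly6c2 was found in 65.3% (60.8 to 69.5) of 475 WT progenitor-like cells. In KO it was found in 16.7% (6.97 to 31.4) of 42.

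In neutrophil-like cells Ly6c2 was at 689 CPM (673 to 705) in WT and 175 (157 to 196) in KO, 3.93-fold lower (3.51 to 4.41). In DC-like cells it was 143 and 40.1 CPM, 3.57-fold lower (2.98 to 4.3). Monocyte-macrophage-like cells were 2.50-fold lower (2.42 to 2.60), progenitor-like cells 1.92-fold (1.68 to 2.19) and pDC-like cells 1.57-fold (1.44 to 1.71). Red-cell RNA took more of the KO totals there. The 10 red-cell markers stood at 40097 CPM in WT and 142861 in KO monocyte-macrophage-like cells. In progenitor-like cells they stood at 28687 and 115793, and in pDC-like cells at 29453 and 150718. Over all alternatives, the pDC-like log2 difference of Ly6c2 ran from -0.96 to -0.43. The progenitor-like value, -0.94 on the log2 scale, became -1.02 under TMM, -1.54 without the top cell of each library and -2.19 in thinned cells. B-like cells, taken as background, were 4.7-fold lower and erythroid-like cells, whose WT level was not above that background, 4.19-fold lower (2.67 to 6.88). Among the other 7 classes Ly6c2 thus differed most in neutrophil-like and DC-like cells and least in T-like and NK-ILC1-like cells. T-like cells had 129 CPM (124 to 134) and 133 (126 to 140), and NK-ILC1-like cells 147 (136 to 158) and 126 (112 to 140).

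Within monocyte-macrophage-like cells the clusters differed more from each other than the class value shows. The classical monocyte cluster had 2264 CPM in WT and 1120.4 in KO, 2.02-fold lower (1.94 to 2.10). The C1q cluster had 1204 and 149 CPM, 8.08-fold lower (7.10 to 9.22). The nonclassical cluster had 206 and 26.1 CPM, 7.87-fold lower (5.80 to 10.8). The level was therefore highest in classical monocytes in both libraries, and in KO the next cluster was several-fold below. Of thinned WT cells with Ly6c2, 58.7% had Ccr2, the chemokine receptor of classical monocytes, against 36.6% of cells without. In KO the shares were 58.3% and 27.8%. Ace, an enzyme gene of nonclassical monocytes, was seen in 3.79% of WT cells with Ly6c2 and 18.8% of those without, and in 4.57% and 33.0% in KO. The C1q cluster held 806 WT and 318 KO cells, the nonclassical cluster 275 and 739, and the classical cluster 598 and 687.

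Neutrophil-like cells fell into a mature cluster led by Cstdc4 and Stfa2l1 (2264 WT and 1288 KO cells) and an immature cluster led by Ltf (1316 and 129 cells). Ly6c2 was at 410.2 CPM in WT and 82.7 in KO in the mature cluster, 4.96-fold lower (4.11 to 6.04). In the immature cluster it was at 886 and 513 CPM, 1.73-fold lower (1.5 to 2.0). The immature cluster was higher in each library, and it was a smaller part of the class in KO.

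The near equal Ly6c2 level of all T-like cells did not hold inside the clusters. In the innate-like cluster led by Il4 and Zbtb16 it was 277 CPM in WT and 106 in KO, 2.61-fold lower (2.32 to 2.94). In the naive CD8 cluster led by Cd8b1 it was 445 and 317 CPM, 1.41-fold lower (1.28 to 1.55), and in the naive CD4 cluster led by Igfbp4 it was 57.3 and 9.79, 5.85-fold lower (3.28 to 10.8). Of 6 T-like clusters compared, 5 were lower in KO, with intervals that took in equality in the Cd4 cluster led by Arnt2 and in the regulatory cluster. The exception was the dividing cluster, at 107 and 143 CPM, 1.33-fold higher. The Cd4 cluster led by Arnt2, with 57.6 CPM of Ly6c2 in WT, held 3227 WT but 73 KO cells, and the innate-like cluster 622 and 3218. The part of this makeup in the class value was not tested.

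NK-ILC1-like cells gave 2 patterns. The cluster led by Klra8 and Klra4, Ly49 receptor genes of mature NK cells, had 138 CPM of Ly6c2 in WT and 161 in KO, 1.17-fold higher. The cluster led by Gzmc and Cd200r2 had 161 and 31.3 CPM, 5.13-fold lower (3.33 to 8.31). Ly6a in contrast was lower in both, from 89.9 to 9.66 CPM in the Ly49 cluster and from 308 to 41.3 in the other.

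**Figure D3:**
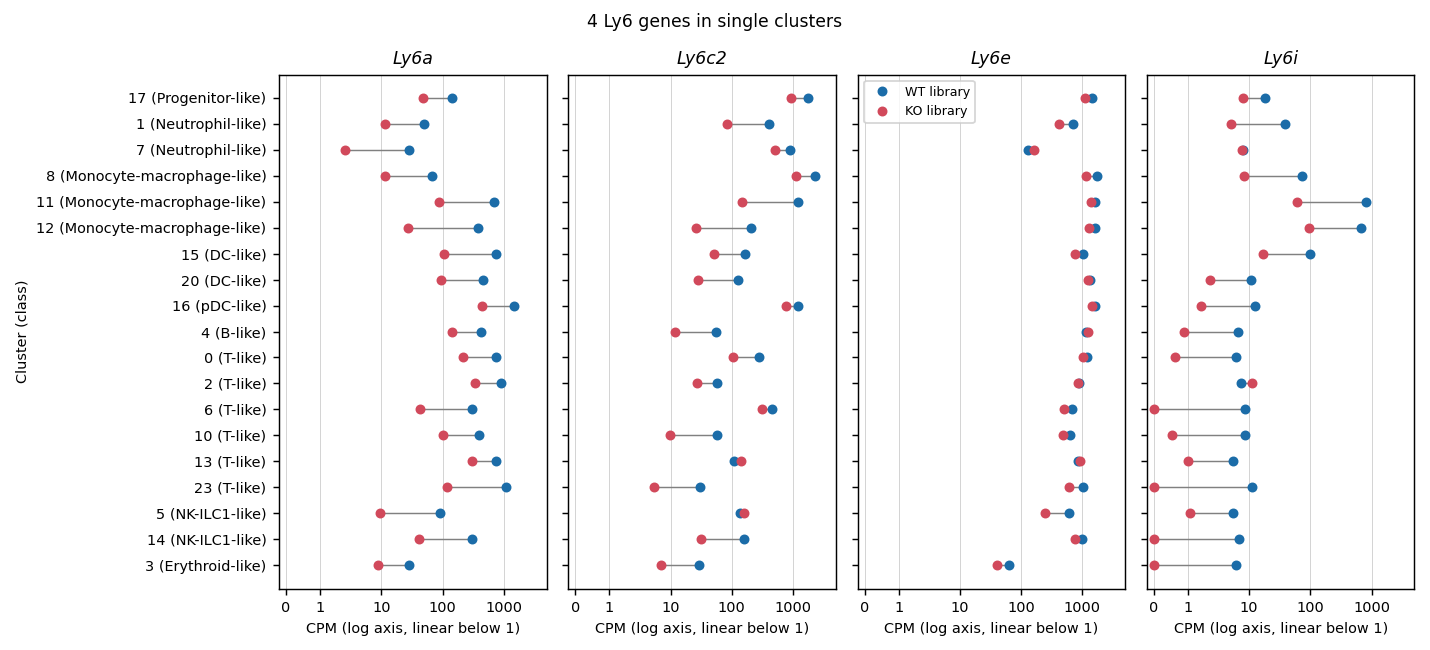
Level (CPM, log axis, linear below 1) of Ly6a, Ly6c2, Ly6e and Ly6i in the 19 named clusters of 50 cells or more per library, WT in blue and KO in red, joined by a line. Ly6a is lower in KO in every cluster shown, Ly6c2 is higher in KO in cluster 13 (dividing T cells) and cluster 5 (Ly49 NK cells), and Ly6e differs by 2-fold or more only in cluster 5.

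Ly6c1, whose coding sequence is nearly that of Ly6c2, had another distribution. It was at 8.11 CPM (6.95 to 9.40) in WT T-like cells and 17.0 (14.8 to 19.5) in KO, 2.10-fold higher, and between 0 and 1.54 CPM in the other 8 classes of either library, where it was not compared. On log2(CPM + 1) the T-like difference was 0.98, just short of the 2-fold line, which 3.31% of genes passed upward, and it passed that line under TMM (1.02) and DESeq2 scaling (1.04). The RNA lay in few cells: 117 of 5955 WT and 183 of 5358 KO T-like cells had a UMI. No thinned cell with Ly6c1 had Cd8b1, among 41 in WT and 73 in KO, which allows shares of up to 7.32% and 4.11%.

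Inside the 2 clusters with at least 20 UMIs Ly6c1 was lower in KO, unlike in the class. The innate-like cluster had 64.6 CPM in WT and 18.6 in KO, 3.47-fold lower (2.66 to 4.53). The naive CD4 cluster had 67.4 and 39.7 CPM, 1.70-fold lower (1.15 to 2.48). These clusters held 622 and 302 WT cells but 3218 and 845 KO cells. In cells with Cd4 and no Cd8 UMI the level was 4.02 CPM in WT and 20.7 in KO, and in cells with neither it was 20.0 and 19.7. Summing Ly6c1 and Ly6c2 as if they were 1 gene changed none of the 5 calls of Ly6c2.

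Ly6g, the neutrophil antigen, was expressed above background in neutrophil-like cells only among the 9 classes. It was at 555 CPM (541 to 570) in WT and 140.2 (123 to 159) in KO, 3.96-fold lower (3.49 to 4.51). The immature cluster had 732 CPM in WT and 349.6 in KO, 2.09-fold lower (1.76 to 2.51), and the mature cluster 305 and 82.7, 3.69-fold lower (3.05 to 4.5). Ly6g was thus higher in the immature than in the mature cluster in each library, and lower in KO in both. The thinned share of neutrophil-like cells with a Ly6g UMI was 30.8% (29.2 to 32.5) in WT and 11.8% (9.59 to 14.4) in KO, against 1.45% and 0.10% of B-like cells. Thinning left out 371 of 3580 WT and 682 of 1417 KO neutrophil-like cells. With every cell kept and thinned to 500 UMIs, the shares were 17.3% in WT and 4.94% in KO. Neutrophil-like cells had medians of 2133.5 and 1014 UMIs, and B-like cells 2084.5 and 1494. The 13 neutrophil markers summed to 302183 CPM in WT and 172152 in KO neutrophil-like cells, and their part in the lower Ly6g value was not tested. Progenitor-like cells had 30 WT UMIs and 0 in KO, where 3 counts would be 12 CPM, above the WT level, so no difference was detectable there.

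Ly6i, a close relative of Ly6a known from activated myeloid cells, belonged to the mononuclear phagocytes. Monocyte-macrophage-like cells had 521 CPM (505 to 537) in WT and 45.5 (40.7 to 50.8) in KO, 11.4-fold lower (10.2 to 12.8), nearly the ratio of Ly6a in the same class. DC-like cells had 50.8 and 10.0 CPM, 5.06-fold lower (3.56 to 7.36), and neutrophil-like cells 20.4 and 5.59, 3.64-fold lower (1.94 to 7.71). In progenitor-like cells it was 18.1 and 7.99 CPM, from 2 KO UMIs, 2.26-fold lower with an interval that took in equality (0.61 to 19.0). The level was highest in the C1q cluster, 799 CPM in WT and 61.5 in KO, and in the nonclassical cluster, 675 and 95.6. The classical monocyte cluster, where Ly6c2 peaked, had 72.3 and 8.18 CPM. In DC-like cells the cluster led by Adam23 and Cd209a had 97.1 and 16.7 CPM, and the Xcr1 cluster 10.6 and 2.29.

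The thinned share of monocyte-macrophage-like cells with Ly6i was 28.3% (26.0 to 30.7) in WT and 5.11% (4.06 to 6.32) in KO, against 0.73% and 0.10% of B-like cells. Ly6a and Ly6i tended to be found in the same WT cells: 35.9% (31.3 to 40.7) of the 418 with Ly6i had Ly6a, and 18.2% (15.9 to 20.7) of those without. Ly6c2 went the other way, with Ly6a in 17.4% (14.8 to 20.3) of cells with Ly6c2 and 29.9% (26.5 to 33.5) of those without. In KO the shares with Ly6a were 5.06% (1.40 to 12.5) with Ly6i and 2.66% without, intervals that overlap.

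Ly6e, known as Sca-2 and as a factor in viral entry, was the broadly expressed member. It stood at 1668 CPM (1639 to 1696) in WT monocyte-macrophage-like cells and at 1248 (1222 to 1274) in KO, at 881 and 832 in T-like cells and at 1130.1 and 1245 in B-like cells. Neutrophil-like cells had less, 372 and 362 CPM, and erythroid-like cells least, 62.4 and 41.1. The log2 differences ran from -0.99 in NK-ILC1-like cells to 0.14 in B-like cells and none reached 2-fold. NK-ILC1-like cells, at 754 CPM (730 to 779) and 380.2 (357 to 405), were 1.98-fold lower (1.85 to 2.13), and their Ly49 cluster, at 599.9 and 242, was 2.48-fold lower (2.24 to 2.76). The 10 red-cell markers stood at 43637 CPM in WT and 193437 in KO NK-ILC1-like cells, and with haemoglobin left out of the total the log2 difference of Ly6e there was -0.74 in place of -0.99. The erythroid-like value, -0.59, turned to 1.80 with classes taken from marker UMIs per cell and to 1.38 with red-cell clusters under 75% haemoglobin named, so it has no settled direction. The sign in pDC-like cells, at 1622 and 1419.8 CPM, rests on the scaling, with a log2 difference of -0.19 that became 0.01 under DESeq2 size factors.

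**Figure D4:**
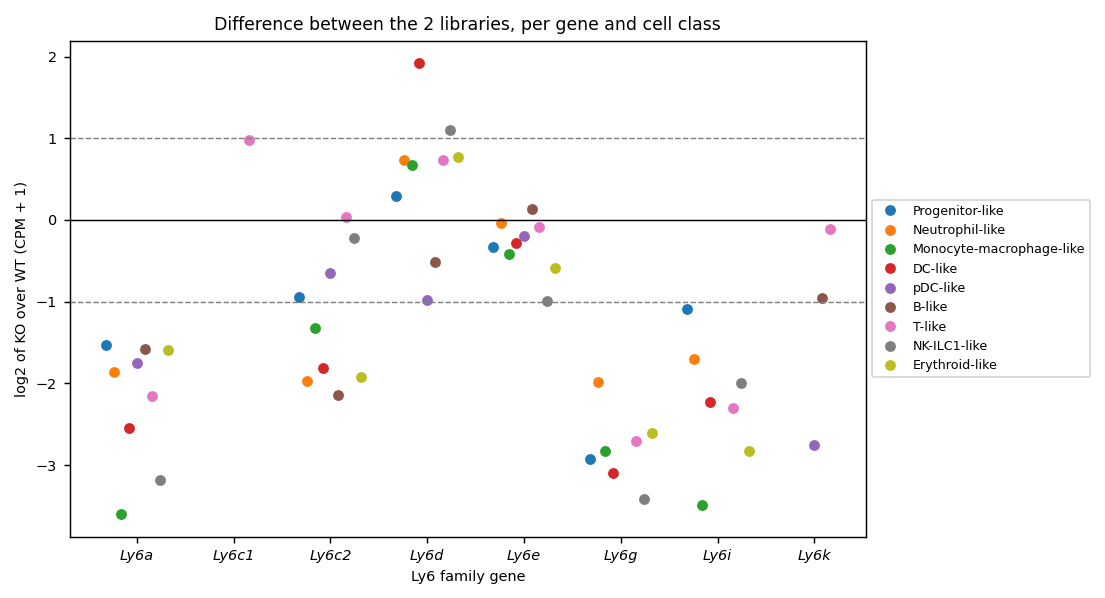
Difference between the libraries for each Ly6 gene, as log2 of KO over WT on CPM + 1, 1 point per cell class with at least 20 UMIs over both libraries, with dashed lines at 2-fold. The points of Ly6a, Ly6g and Ly6i all lie below the lower line, those of Ly6e between the lines, and Ly6d lies on both sides of 0. Ly6g outside neutrophil-like cells was not above background in WT.

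Ly6d, like Ly6e, differed in sign between classes, and its higher values with intervals that left out equality lay in classes at or near background in WT. It was abundant in pDC-like cells, at 2028 CPM (1940 to 2119) in WT and 1026 (970 to 1084) in KO, 1.98-fold lower (1.84 to 2.12), and in B-like cells, at 835 (789 to 882) and 583 (552 to 615), 1.43-fold lower (1.33 to 1.55). In 6 other classes it was between 2.93 and 4.59 CPM in WT and between 5.73 and 14.5 in KO, and in progenitor-like cells 29.1 and 36.0, where 8 of the 9 KO UMIs lay in 1 cell. The DC-like value, 3.11 CPM (1.61 to 5.43) against 14.5 (10.9 to 18.9), was 4.67-fold higher, and the NK-ILC1-like value, 2.93 against 7.41, was 2.53-fold higher.

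The higher values lay in few cells. In KO 29 of 676 DC-like cells had a Ly6d UMI, 55 UMIs in all. At least 2 UMIs of B-cell markers were found in 20 of these 29 (69.0%) and in 19.2% of the KO DC-like cells without Ly6d. In WT they were found in 0 of 12 DC-like cells with Ly6d, which allows a share of up to 25%, and in 7.85% of those without. In KO monocyte-macrophage-like cells, at 7.75 CPM, the same markers were found in 18 of 25 cells with Ly6d (72.0%) and in 8.20% of those without. In KO NK-ILC1-like cells, in contrast, it was 1 of 19. With marked doublets kept, the DC-like log2 difference was -0.20 in place of 1.92, and the NK-ILC1-like one 0.82 in place of 1.10. T-like cells, which should lack Ly6d, had it in 0.58% (0.39 to 0.82) of thinned WT and 0.59% (0.38 to 0.86) of thinned KO cells, and no class other than B-like, pDC-like and progenitor-like cells can be told from that level in WT. The part of B-cell RNA in these values was not tested.

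In pDC-like cells Ly6d marked a subset. A Ly6d UMI was found in 58.1% (51.2 to 64.7) of 217 thinned WT cells and 40.5% (34.9 to 46.4) of 291 KO cells. Cells with Ly6d had Ly6a in 74.6% (66.1 to 81.9) of cases in WT and cells without in 27.5% (18.6 to 37.8). In KO the shares were 44.1% (34.9 to 53.5) and 13.3% (8.62 to 19.3). Bst2, a surface gene of pDCs, showed the same order, at 89.7% and 52.7% in WT and 83.9% and 45.7% in KO, and so did Siglech, the defining lectin of pDCs, at 84.1% and 67.0% and at 89.8% and 75.7%. Tcf4, the transcription factor of the lineage, was found in 96.8% and 96.7% of WT cells and in 99.2% and 96.0% of KO cells. The B-cell gene Cd79a was found in 0 of 126 WT cells with Ly6d, which allows up to 2.38%, in 1.10% of those without, and in 5.08% and 4.62% of KO cells. B-like cells did not show such a split: Ly6a was in 33.0% of WT cells with Ly6d and 31.5% of those without, and in 15% and 11.7% in KO.

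Ly6c2 followed Ly6a in pDC-like cells as well. Ly6a was found in 65.3% (56.2 to 73.6) of the WT cells with Ly6c2 and 40.9% (30.8 to 51.5) of those without, and in KO in 45.4% (35.2 to 55.8) and 16.0% (11.1 to 21.9). In T-like cells the order was reversed in WT, with Ly6a in 36.7% (32.4 to 41.1) of cells with Ly6c2 and 44.5% (43.1 to 46.0) of those without. In KO T-like cells it was 12.4% (9.40 to 16.0) and 15.1% (14.0 to 16.2), intervals that overlap.

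Ly6k, best known from the testis, was a rare member, with 262 UMIs in kept WT cells and 96 in KO, beside 210 and 246 for Ly6c1. It was at 66.4 CPM (51.3 to 84.7) in WT pDC-like cells and 9.03 (4.51 to 16.2) in KO, 7.35-fold lower (3.85 to 15.5), and these UMIs lay in 23 and 6 cells. A cluster led by Sox5, Fcrl5 and Mzb1, left unnamed because its leading genes held more plasma cell than B cell markers, had 188 CPM in WT and 40.0 in KO, 4.69-fold lower (3.25 to 6.89). That cluster of 101 WT and 241 KO cells also carried Ly6d, 803 and 472 CPM, and Ly6a, 1285 and 367. B-like cells had 8.59 and 3.93 CPM of Ly6k, with an interval of the ratio that took in equality, and T-like cells 2.04 and 1.81.

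Of 36 other genes of the Ly6/uPAR superfamily, all in the files, between 2 and 5 had 20 UMIs in a class, so most were not measurable here. In T-like cells 1 of 5 was at least 2-fold higher (3.31% of all genes) and 0 lower (8.07%), with a median of 0.26. The higher gene was Lypd6b, at 19.6 CPM in WT and 41.7 in KO. Lypd6b was also higher in neutrophil-like cells, at 26.6 and 71.0 CPM, and in monocyte-macrophage-like cells, at 2.11 and 6.76, and lower in NK-ILC1-like cells, at 16.5 and 6.24. It was thus opposite in direction to Ly6a in T-like cells, to Ly6i in neutrophil-like cells and to both in monocyte-macrophage-like cells. As much higher were 7.32% of genes in neutrophil-like cells and 2.34% in monocyte-macrophage-like cells. As much lower were 7.99% of genes in NK-ILC1-like cells. Plaur, the urokinase receptor and the most abundant of the 36, was at 449 and 426 CPM in neutrophil-like cells and at 169 and 159 in monocyte-macrophage-like cells, where Ly6a, Ly6c2 and Ly6i were all at least 2-fold lower. Of the further genes past 2-fold, Cd59a, a complement inhibitor, was higher in erythroid-like cells (2.77 and 12.1 CPM, where 4.09% of genes were as much higher). Ly6g5b was lower in neutrophil-like cells (6.52 and 1.68, where 8.37% were as much lower). Lynx1 was lower in pDC-like cells (41.9 and 15.6, where 4.8% were as much lower). Lypd6b in progenitor-like cells had 23 WT UMIs and 0 in KO, where 3 counts would be above the WT level, so no difference was detectable.

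Ly6a2, the neighbour whose promoter window resembled that of Ly6c2, was at 571 CPM (556 to 586) in WT neutrophil-like cells and 159 (141 to 178) in KO, 3.60-fold lower (3.19 to 4.07), beside 3.93-fold for Ly6c2. In monocyte-macrophage-like cells it was at 374 and 179.7 CPM, 2.08-fold lower (1.95 to 2.22). In pDC-like cells, where Ly6c2 was high, Ly6a2 was at 11.2 and 7.39 CPM. How far UMIs of Ly6a2 and Ly6c2 can be told apart was not checked.

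Genes induced by interferon-gamma were listed for context because members of the family respond to interferons. The list was chosen with earlier results of these data known, so its counts are a description and not independent of those results. The median of these 24 genes was lower in KO in all 9 classes. In monocyte-macrophage-like cells 23 of 24 were at least 2-fold lower with a median of -2.18, against 4.55% of all genes there. In DC-like cells 17 of 24 were, with -1.5 (2.85% of genes), and in neutrophil-like cells 20 of 24, with -1.44 (8.37%). In T-like cells 9 of 24 were, with -0.82 (8.07%), and in B-like cells 17 of 21, with -1.5 (2.67%). NK-ILC1-like cells had 14 of 23 with -1.25 (7.99%) and pDC-like cells 13 of 19 with -1.28 (4.8%). Erythroid-like cells had 12 of 20 with -1.34 (8.5%) and progenitor-like cells 9 of 23 with -0.91 (15.7%). The medians of all genes in the 9 classes lay between -0.17 and 0.06. No gene of this list was at least 2-fold higher in any of them. Their part in the Ly6 values was not tested.

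Likeness of profile was described over the 18 class-by-library profiles, among 6697 genes, as the Pearson correlation of log2(CPM + 1). The profiles share library, depth and free RNA, so these are descriptions. Ly6g was most like Itgb2l (0.99), Ceacam10 (0.98) and Ltf (0.98), neutrophil granule and surface genes. Ly6i was most like Batf2 (0.92), Cxcl9 (0.90) and Cfb (0.90), genes known as inducible by interferon. Ly6a was most like Pafah1b3 (0.85), Dst (0.85) and Parp11 (0.84), Ly6c2 like Pqlc3 (0.90), Ethe1 (0.90) and Adssl1 (0.87), and Ly6d like Hs3st1 (0.95), Ppm1e (0.95) and Sema4b (0.94). Ly6e was most like Tgfb1 (0.98), Jtb (0.97) and Mtch1 (0.97). Ly6k was most like Gm13919 (0.90), Dntt (0.90), the terminal transferase of early lymphoid cells, and Gm56600 (0.86).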

How the data were processed

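Mouse leukocytes of 2 genotypes were measured as 1 droplet-based 3′ single-cell RNA library each, grouped by the genotype tag of the labels. The authors deposited raw, unscaled UMI counts per gene and barcode. Cell Ranger 8.0.1 is given in the headers of these files, whereas Cell Ranger 6.0.1 stands in the submitters' processing notes, together with mm39 and, as Seurat, version 4.3.0. The 8 members and all lists were chosen with earlier results of these data known.

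Barcodes with fewer than 200 genes (1919 WT, 9283 KO) or over 20% mitochondrial UMIs (111 and 75) were left out, as were doublets marked by Scrublet in scanpy 1.11.5 (3087 and 2056, expected rate 0.8% per 1000 barcodes). The rest were clustered together with 2000 variable genes, 30 principal components, 15 neighbours and Leiden (leidenalg 0.10.2) at resolution 1. Ly6/uPAR, immunoglobulin, T-cell receptor, mitochondrial, ribosomal, haemoglobin and sex genes took no part. Clusters were named X-like where at least 3 markers were 2-fold higher and seen in 10% of cells, and stayed unnamed where leading genes went against the name or haemoglobin passed a median of 10%. Erythroid-like clusters needed 75%, a minimum chosen with results known. These names were rebuilt here and are not the study's.

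UMIs were summed per class and library (at least 50 cells in each), scaled to CPM and compared as log2 of KO over WT with a pseudocount of 1, from a summed count of 20. With 1 library per genotype no test exists, so a 2-fold difference stands in for one. Sums carry exact Poisson, ratios exact conditional binomial and shares exact Clopper-Pearson intervals (scipy 1.17.1), at 95% and for counting error only. The limit a count of 0 allows is 3 counts. On simulated sums, the true ratio lay inside its interval for 95.6% to 97.2% of genes by class, and 4-fold changes passed 2-fold in 90.8% (progenitor-like) to 98.9% (pDC-like). These sums were drawn as Poisson counts, as the intervals assume, so they check the calculation only. Spread between cells or animals was not simulated. Shares used cells thinned to 1000 UMIs. All members were named. Likeness took the 3 highest correlations for members with 20 CPM in a profile, among genes with 50 CPM, and list genes past 2-fold were named, at most 4 a class. Alternatives used edgeR 4.0.16 (TMM), DESeq2 1.42.0, other pseudocounts, minima, filters, doublets kept, other classes, free RNA subtracted and, added after seeing the data, top cells left out and more red-cell clusters named. Alignments used Biopython 1.88.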

Additional observations from a re-analysis of the deposited data

Results flagged for a closer look

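Ly6d differed in sign between classes, with counting intervals that left out equality on each side. On the log2 scale KO over WT it was 1.92 in DC-like, 1.10 in NK-ILC1-like, 0.74 in T-like and 0.68 in monocyte-macrophage-like cells, but -0.52 in B-like and -0.98 in pDC-like cells. Ly6e was higher in B-like cells, at 0.14, and lower in DC-like (-0.29), erythroid-like (-0.59), monocyte-macrophage-like (-0.42), NK-ILC1-like (-0.99), progenitor-like (-0.34), T-like (-0.082) and pDC-like cells (-0.19). The erythroid-like value was 1.80 with classes from marker UMIs per cell. With 1 library per genotype, neither difference between classes was tested.

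The barcodes that the filters left out also held Ly6 RNA. Those with under 200 genes had 113 CPM of the 8 genes together in WT and 66.5 in KO. Those over 20% mitochondrial UMIs had 993 CPM in WT, from 111 barcodes, and 642 in KO, from 75.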

How the results depend on the processing

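The count of 29 member-class pairs at least 2-fold lower ran from 18, with a pseudocount of 10, to 36, with no minimum count, and the other 14 alternatives gave values between 20 and 34. The 2 higher pairs became 0 with a pseudocount of 10, with a minimum count of 100 and in thinned cells, 1 with doublets kept and 5 with classes taken from marker UMIs per cell. Calls that turned sign were Ly6a in erythroid-like cells, at 0.13 with classes from marker UMIs and 0.27 with red-cell clusters under 75% haemoglobin named (chosen after seeing the data), Ly6c2 in erythroid-like cells, at 0.058 with classes from marker UMIs, and Ly6d in DC-like cells, at -0.20 with doublets kept, and the cause was not tested. Ly6e in erythroid-like cells, not past 2-fold at -0.59, became 1.80 and 1.38 in the same pair of settings as Ly6a. Leaving out the top cell of each gene (chosen after seeing the data) kept 31 of 31 calls. Ly6a kept its call under every alternative run in the 7 classes other than erythroid-like and progenitor-like, where thinned cells gave -0.97. Scaling moved the median of all genes by -0.20 (TMM) in neutrophil-like and 0.20 (DESeq2) in pDC-like cells. With 18 pairs under 20 UMIs and 52 KO progenitor-like cells, depth limits Ly6c1, Ly6k and that class. No paired analysis was possible because each genotype has 1 library and no test was run.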
